A study of Rattus norvegicus with 7 samples.

Results

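Endocannabinoids are lipid messengers that brain cells make on demand from membrane phospholipids and that act back on presynaptic terminals to reduce transmitter release. Anandamide is released by the phospholipase D that Napepld encodes, and 2-arachidonoylglycerol by diacylglycerol lipase (Dagla). Both lipids act on the cannabinoid receptors (Cnr1, Cnr2), and anandamide also opens the cation channel Trpv1. They are broken down by hydrolases, with Faah acting on anandamide and Mgll, Abhd6 and Abhd12 on 2-arachidonoylglycerol, or are oxygenated to prostaglandin-like products by cyclooxygenase-2 (Ptgs2). In brain this system adjusts synaptic strength and takes part in reward, feeding and the response to alcohol.

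A pair of Wistar lines bred for opposite alcohol preference, alcohol-preferring (P) and non-preferring (NP), were compared by 1-colour arrays of whole-brain RNA, each array holding 1 rat. The 4 P rats are called P 1 to P 4, and the 3 NP rats NP 2 to NP 4. All were adult, male, alcohol-naive and double-housed, and per the series' design text the authors had dropped a further NP array in quality control. Endocannabinoid genes were found by the RefSeq transcript that the arrays give for each probe. Of the 10 genes of interest 5 had such a probe: Trpv1 (probes GE21255 and GE13216), Napepld (GE1183852), Abhd6 (GE15936), Abhd12 (GE1274817) and Ptgs2 (GE1164547). They were covered by 6 of the 33849 transcript probes. No probe was matched in this way to Cnr1, Cnr2, Dagla, Faah or Mgll, and these genes are not analysed here. The cannabinoid receptors, the main synthetic enzyme of 2-arachidonoylglycerol and the main hydrolases of both lipids are therefore outside the results below.

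All 6 probes passed the filter on dim signals (3 or more of the 7 arrays above local background) and were tested among 29003 probes. The file headers carry 3 dates. Rats P 1, P 2, NP 2 and NP 3 shared date 1, NP 4 alone had date 2, and P 3 and P 4 had date 3; the headers do not say which step it marks. Both lines occurred on date 1 only, so the lines were also compared with date as a block and within date 1. For probes without missing spots, which holds for all 6 endocannabinoid probes, both of these take the line difference from P 1, P 2, NP 2 and NP 3 alone. Probes that lacked all date 1 spots of a line were not tested within date 1 (28919 tested). Their blocked difference mixed dates. The 2 fits gave the same difference for each endocannabinoid probe and count as 1 result, not 2. Of 48 marker genes of brain and other cell types, 37 were tested and 0 were called between the lines over all 7 arrays, where a call is an adjusted p under 0.05 by limma. With date as a block 2 of the 37 were called, where 5.72% of all probes were, both lower in P: Aif1 of microglia (-1.23, adjusted p = 0.0154 by limma) and Slco1a4 of endothelium (-0.63, adjusted p = 0.0429 by limma). Other microglia markers lay higher in that fit (Itgam 0.29, Csf1r 0.18, Cd68 0.14, C1qb 0.04, Cx3cr1 0.0059) or lower (P2ry12 -0.35, C1qa -0.16). Of the endothelial markers Cldn5 was 0.22 and Flt1 -0.20. Within date 1, where the same rats set the difference, the 2 called were Aif1 and Slco1a4, with adjusted p of 0.0138 and 0.0413 by limma. The markers of astrocytes (7 of 7), microglia (8 of 8) and choroid plexus (4 of 4) were above background on all 7 arrays, as were 3 of the 5 tested neuronal and 6 of the 7 oligodendrocyte markers. The neuronal Stmn2 and the oligodendrocyte Mog fell short only through missing spots. The neuronal Snap25 was dim, above background in 1 of 4 P and 2 of 3 NP rats. None of the 2 tested liver genes was above background on all 7 (0 of 2), but neither was below it throughout. Alb was above background in 3 of 4 P and 2 of 3 NP rats, and Apoa1 in 2 of 4 P and 2 of 3 NP rats. In whole brain, fewer cells of a type and less RNA per cell cannot be told apart.

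None of the 6 endocannabinoid probes was called between the P and NP lines (0 of 6, where 0.29% of all tested probes were called by limma at an adjusted p under 0.05). Their P minus NP differences ran from -0.23 for Ptgs2 to 0.18 for Abhd12 on the log2 scale, 3 higher and 3 lower, with a median of -0.03. The median over all 29003 tested probes was 0.01. For 0 of the 6 did the P and NP values stand apart, against 13.3% of the 27255 probes with 7 values. At an unadjusted p under 0.05, 0 of the 6 passed, and 3348 of all probes did. In a comparison added after the values were seen, of P rats that differ in header date, Ptgs2 was called between P 1 and P 2 on one side and P 3 and P 4 on the other. It was 1 of 6 endocannabinoid probes called there, where 16.7% of all probes were.

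**Figure D1:**
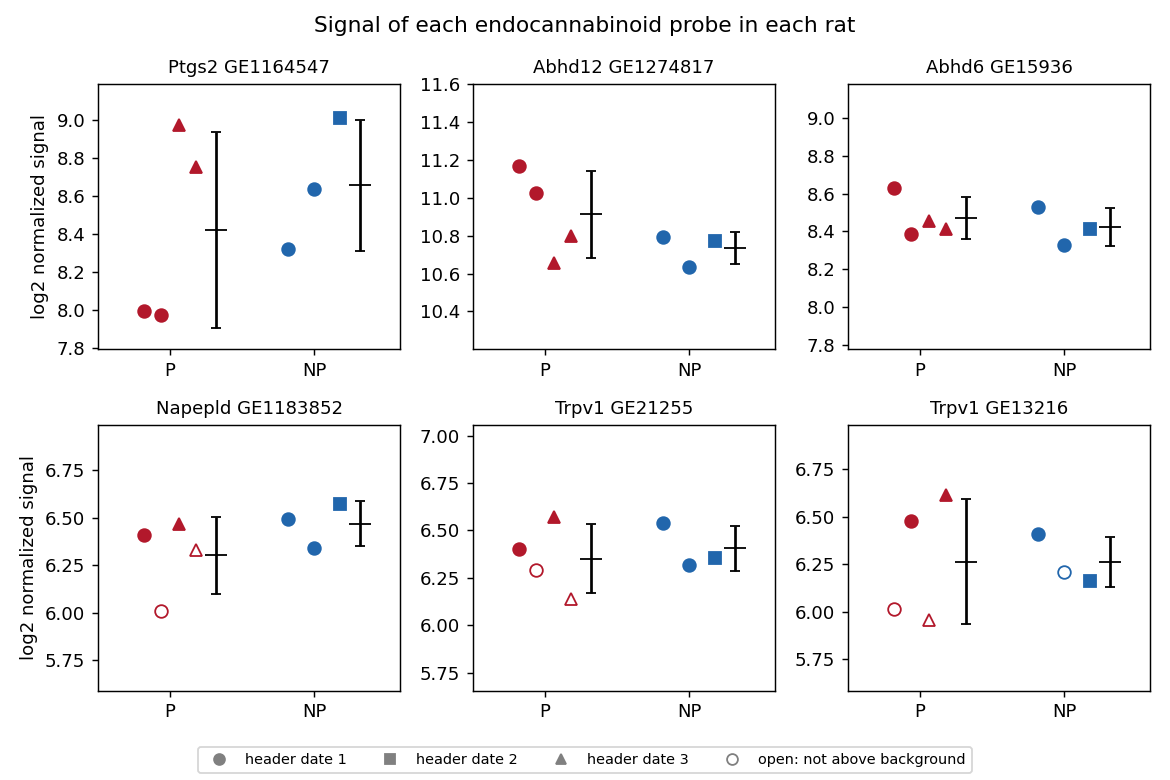
Log2 normalized signal (vertical axes, each spanning the same width) of the 6 endocannabinoid probes in each rat, with P left of NP; marker shapes give the header date, open markers spots not above background, and bars the mean ± SD. The groups overlap in every panel, and for Ptgs2 the P rats P 1 and P 2 lie near 8.0 while P 3 and P 4 lie at 8.97 and 8.75.

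Trpv1, the heat- and capsaicin-gated channel of sensory neurons that also responds to anandamide, was barely detected by either of its probes. With GE21255 the background-subtracted intensity was 32.8, 23.8, 49.3 and 16.9 in P 1 to P 4, against 30.4 to 45.2 in the 3 NP rats. With GE13216 it was 14.9, 31.4, 9.73 and 50.7 in P 1 to P 4, against 25.2 to 37.2 in the NP rats. P 4 was the dimmest P rat with one probe and the brightest with the other. Probe GE21255 was above its local background in 2 of 4 P and 3 of 3 NP rats, and GE13216 in 2 of 4 P and 2 of 3 NP rats. Negative control spots, which match no transcript of the sample, had a subtracted intensity whose 95th percentile was 55.4 to 69.4 in P arrays and 59.2 to 70.2 in NP arrays. Both Trpv1 probes lay below that level in all 7 rats, within the range of spots without a target. The line difference was -0.05 ± 0.13 (SE; 95% confidence interval -0.35 to 0.24; adjusted p = 0.889 by limma) for GE21255. For GE13216 it was 0.0035 ± 0.18 (95% confidence interval -0.39 to 0.39; adjusted p = 0.995 by limma). With plain background subtraction the differences were -0.16 ± 0.28 for GE21255 and -0.14 ± 0.50 for GE13216 (adjusted p = 0.826 and 0.925 by limma).

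Napepld, which cleaves N-acyl phosphatidylethanolamines to anandamide and related amides, was as dim. Its subtracted intensity was 33.1, 12.9, 40.4 and 27.6 in P 1 to P 4, against 42.2, 31.2 and 51.3 in NP 2 to NP 4. It was above its local background in 2 of 4 P rats and 3 of 3 NP rats, and below the 95th percentile of negative controls in all 7. P 1 and P 3 fell within the NP range, and P 2 and P 4 below it. The mean log2 normalized signal was 6.30 in the 4 P rats (SD 0.20) and 6.47 in the 3 NP rats (SD 0.12), a difference of -0.17 ± 0.14 (SE; 95% confidence interval -0.47 to 0.14; adjusted p = 0.642 by limma). Size and error depended on the processing: with plain background subtraction it was -0.48 ± 0.35 (adjusted p = 0.604 by limma). In the processed values of the authors it was -0.45 ± 0.33 (adjusted p = 0.606 by limma). For Trpv1 and Napepld a difference between the lines was not detectable at this signal over background.

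**Figure D2:**
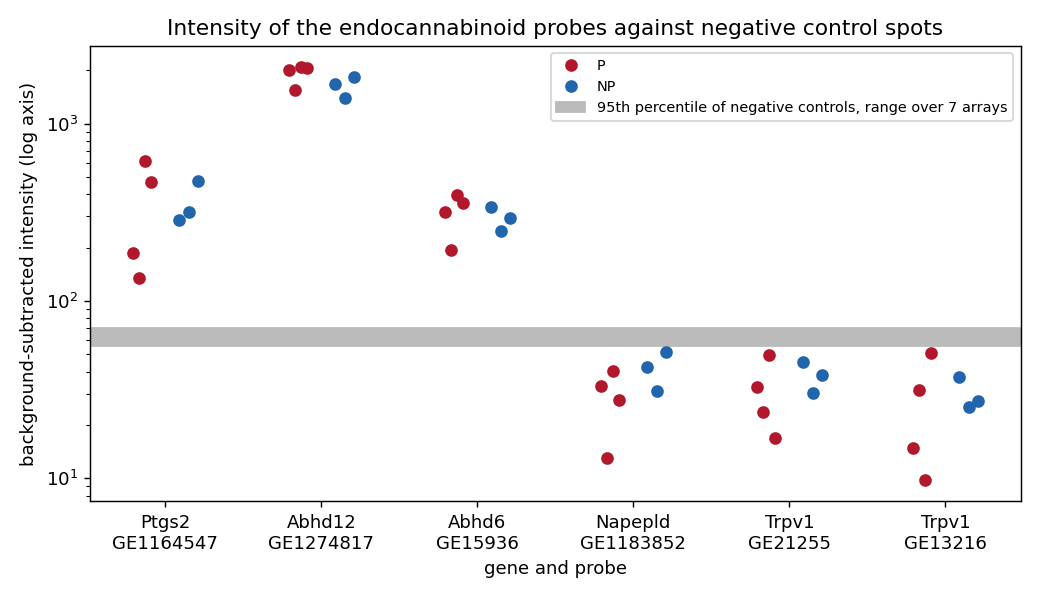
Background-subtracted intensity (log axis) of each endocannabinoid probe in the P rats (red, left) and NP rats (blue, right), with a grey band for the range over arrays of the 95th percentile of negative control spots. Ptgs2, Abhd12 and Abhd6 lie above the band in all 7 rats, and Napepld and both Trpv1 probes lie below it in all 7.

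The hydrolases Abhd6 and Abhd12 were well detected, brighter than all negative control spots on all 7 arrays. Abhd6 is a membrane serine hydrolase that degrades 2-arachidonoylglycerol inside the postsynaptic neuron. Its log2 normalized signal was 8.63, 8.39, 8.46 and 8.41 in P 1 to P 4, against 8.53, 8.33 and 8.42 in NP 2 to NP 4. The lines overlapped, and no rat stood far from the rest. Its SD was 0.11 in P and 0.10 in NP, and 81.2% of the 27255 probes with 7 values varied more among the P rats. The line difference was 0.05 ± 0.12 (SE; 95% confidence interval -0.21 to 0.31; adjusted p = 0.884 by limma), which as a fold is 0.865 to 1.24. With date as a block the difference was 0.08 (95% confidence interval -0.23 to 0.39; adjusted p = 0.743 by limma).

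Abhd12, a lipase of microglia and other brain cells that also hydrolyses lysophosphatidylserine, read 11.16, 11.03, 10.65 and 10.80 in P 1 to P 4, against 10.79, 10.64 and 10.77 in NP 2 to NP 4. P 1 and P 2 lay above every NP rat, and P 3 and P 4 within or just above the NP range. Its line difference was 0.18 ± 0.14 (SE; 95% confidence interval -0.14 to 0.49; adjusted p = 0.623 by limma). With date as a block it was 0.38 ± 0.13 (95% confidence interval 0.08 to 0.68, unadjusted p = 0.0168, adjusted p = 0.112 by limma). Within date 1, on the same 2 P and 2 NP rats that set the blocked difference, it was the same 0.38, with an adjusted p = 0.109 by limma. Without P 1 and P 2 it was -0.0055. In the blocked fit 5.72% of all probes were called and 0 of the 6 endocannabinoid probes, and within date 1 6.47% of all probes and again 0 of the 6. Before scaling, the subtracted intensity of Abhd12 was 2004, 1543, 2092 and 2064 in P 1 to P 4, against 1662, 1387 and 1826 in NP 2 to NP 4. P 3 and P 4 were thus no dimmer than P 1 and P 2 before scaling. The median subtracted intensity of all probes was 125 and 119 on those arrays, and 90.5 and 69.7 on P 1 and P 2.

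Ptgs2, the inducible cyclooxygenase that neurons switch on with synaptic activity and that oxygenates arachidonate as well as endocannabinoids, was the most variable of the 6. It read 7.99, 7.97, 8.97 and 8.75 in P 1 to P 4, against 8.32, 8.64 and 9.01 in NP 2 to NP 4. P 1 and P 2 lay below every NP rat, and P 3 and P 4 fell among the upper NP values. In subtracted intensity, too, P 1 and P 2 were lowest, with 187, 136, 611 and 467 in P 1 to P 4, against 287, 317 and 477 in NP 2 to NP 4. The SD was 0.52 in P, which 3.79% of the 27255 probes with 7 values exceeded, and 0.35 in NP, which 4.41% exceeded. The line means were 8.42 in P and 8.66 in NP, a difference of -0.23 ± 0.26 (SE; 95% confidence interval -0.82 to 0.35; adjusted p = 0.734 by limma). With date as a block it was -0.50 ± 0.15 (95% confidence interval -0.83 to -0.17, unadjusted p = 0.00724, adjusted p = 0.0762 by limma). Within date 1 the same rats gave the same -0.50 (adjusted p = 0.0689 by limma). The direction of the line difference hung on which P rats were used: without P 3 and P 4 it was -0.67 (adjusted p = 0.0376 by limma, where 11.5% of all probes were called), and without P 1 and P 2 it was 0.21 (adjusted p = 0.614 by limma, where 0.652% were).

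**Figure D3:**
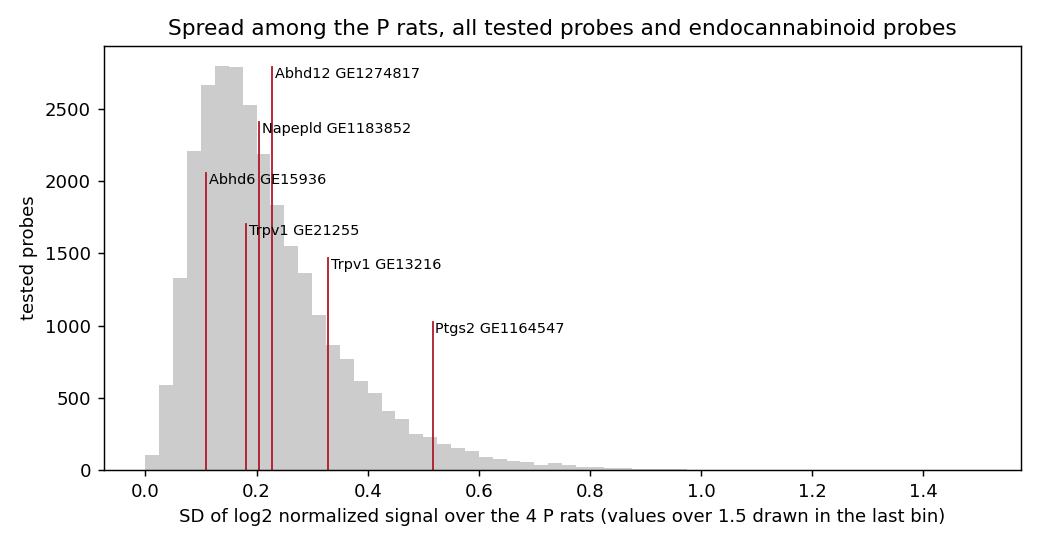
Histogram of the SD of log2 normalized signal over the 4 P rats (horizontal axis) for tested probes with 4 P values (count on the vertical axis), with red lines at the 6 endocannabinoid probes. Ptgs2 lies in the upper tail at 0.52, and Abhd6 left of the peak at 0.11.

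Since the P rats carried 2 header dates, P 1 and P 2 were compared with P 3 and P 4 in the fit with line and date, a comparison added after the values were seen. Ptgs2 averaged 7.98 in P 1 and P 2 and 8.86 in P 3 and P 4, a difference of -0.88 ± 0.15 (SE; 95% confidence interval -1.21 to -0.55, a fold of 0.543; adjusted p = 0.00617 by limma). It was the only one of the 6 endocannabinoid probes called, while 16.7% of all probes were. Abhd12 differed the other way, averaging 11.10 in P 1 and P 2 and 10.73 in P 3 and P 4 (0.37 ± 0.13, unadjusted p = 0.0198, adjusted p = 0.0848 by limma). The Abhd12 difference kept this direction in all 11 alternatives run, between 0.21 (with median scaling) and 0.44. It was called in none, with a lowest adjusted p of 0.0664 by limma. Abhd6 differed by 0.07 (95% confidence interval -0.24 to 0.39) and Napepld by -0.19 (95% confidence interval -0.54 to 0.16). The value of the dim Napepld depended on the processing, at -0.62 with plain background subtraction (adjusted p = 0.372 by limma), -0.58 in the processed values of the authors (adjusted p = 0.385 by limma) and 0.16 with median scaling (adjusted p = 0.393 by limma). The Trpv1 probes differed by -0.0094 and -0.039. The Ptgs2 difference kept its direction in all 11 alternatives run, between -1.09 and -0.77. Its adjusted p was over 0.05 in the processed values of the authors (-1.09, adjusted p = 0.0528), with plain background subtraction (-1.04, adjusted p = 0.0512) and without P 2 (-0.87, adjusted p = 0.0589), all by limma. Within the NP line Ptgs2 was 0.53 higher in NP 4 than the mean of NP 2 and NP 3, a value from 1 rat with no test. Header date and the rats of each date cannot be told apart. In the same comparison 6 of 35 tested markers of brain and other cell types were called, or 17.1%, near the 16.7% of all probes. Higher in P 1 and P 2 were Syn1 of neurons (1.26), Gfap of astrocytes (0.71), and Cd68 (0.60) and Itgam (0.43) of microglia. Lower there were Aif1 of microglia (-0.75) and Slco1a4 of endothelium (-0.72). The part of these cell types in the Ptgs2 difference was not tested.

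**Figure D4:**
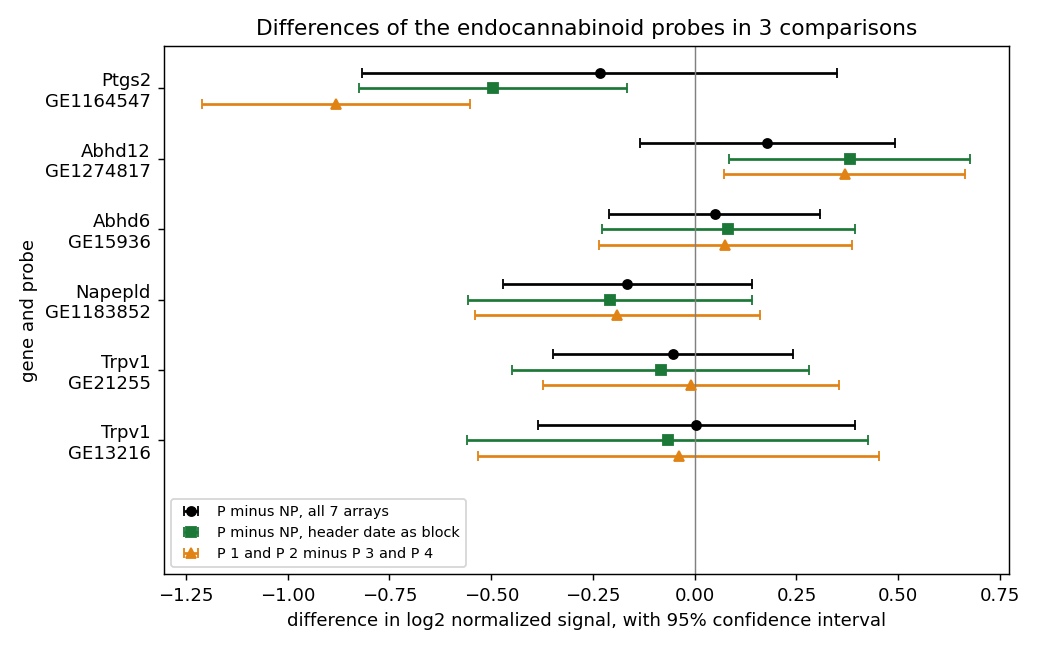
Difference in log2 normalized signal (horizontal axis) with its 95% confidence interval for each endocannabinoid probe: P minus NP over all 7 arrays (black circles), P minus NP with header date as a block (green squares), and P 1 and P 2 minus P 3 and P 4 (orange triangles). All black intervals include 0, and the interval of Ptgs2 between the pairs of P rats runs from -1.21 to -0.55.

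The stretch around the transcription start is shown for Ptgs2 and Abhd12, the 2 genes with an unadjusted p under 0.05 between the pairs of P rats. The sequences are those of RefSeq on GRCr8, from 250 bases before to 50 bases after the start, at chr13:64713813-64714112 on the plus strand for Ptgs2 and chr3:160179880-160180179 on the minus strand for Abhd12. Capitals mark matches on either strand to the letters CACGTG of the E box, to those of the box named CCAAT, and to GGGCGG of the GC box. The TATA box (TATAAA) and the core of the cyclic AMP response element (TGACG) were searched as well, and no matches overlapped.
Ptgs2: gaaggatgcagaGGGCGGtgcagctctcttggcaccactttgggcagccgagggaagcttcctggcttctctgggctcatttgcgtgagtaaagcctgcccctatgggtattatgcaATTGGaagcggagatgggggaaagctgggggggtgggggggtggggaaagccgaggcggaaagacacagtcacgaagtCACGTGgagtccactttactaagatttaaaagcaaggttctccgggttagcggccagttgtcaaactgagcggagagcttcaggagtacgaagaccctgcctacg
Abhd12: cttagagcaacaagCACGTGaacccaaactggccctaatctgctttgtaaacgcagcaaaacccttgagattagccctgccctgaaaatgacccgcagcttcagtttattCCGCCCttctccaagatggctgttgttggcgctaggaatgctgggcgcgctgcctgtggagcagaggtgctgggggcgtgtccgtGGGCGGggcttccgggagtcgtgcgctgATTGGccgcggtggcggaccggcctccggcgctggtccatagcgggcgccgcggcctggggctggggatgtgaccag
Both windows held 1 E box, which 6.4% of the 33469 windows of this length hold. It began 55 bases before the start in Ptgs2 and 236 bases before it in Abhd12. Both also held 1 CCAAT box, found in 37.5% of all windows, and a GC box (1 in Ptgs2 and 2 in Abhd12), found in 33.1%. Neither held TATAAA (14.2% of windows) or TGACG (21.2%). These are matches of letters, and no binding was measured.

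For the 3 genes above background on all 7 arrays, the named genes with the most similar course over the 7 rats were sought by Pearson's r among 5427 probes. Closest to Ptgs2 were Bzw2 (r = 0.998, Spearman's rho = 0.964) and Nfe2l2 (r = 0.993, rho = 0.964), a transcription factor of the antioxidant response. Like Ptgs2, both were lower in P 1 and P 2 than in P 3 and P 4, by -0.90 and -0.82. Closest to Abhd12 were Lrg1 (r = 0.997, rho = 0.964) and Ltbr (r = 0.991, rho = 0.857), which differed between these pairs by 0.35 and 0.85. Closest to Abhd6 were Timp3 (r = 0.978, rho = 0.964) and Gnpat (r = 0.945, rho = 0.929). Probes with r over 0.9 numbered 155 for Ptgs2, 177 for Abhd12 and 7 for Abhd6. These are descriptions over 7 arrays that share header dates and array brightness. Genes chosen by r over these rats differ the same way between the pairs of P rats by that choice.

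Of 50 further genes of endocannabinoid synthesis, transport, signalling and the eicosanoid branch, 34 had a probe and 32 were tested. Between the lines 0 of the 32 were called (0.29% of all probes were), 13 lay higher and 19 lower in P, with a median of -0.03, and 5 (15.6%) had an unadjusted p under 0.05, where 11.5% of all tested probes did. By role, the tested genes numbered 8 of synthesis and hydrolysis (2 higher, 6 lower), 7 receptors and channels (3 higher, 4 lower), 2 carriers (both lower), 5 eicosanoid enzymes (4 higher, 1 lower) and 10 receptor partners (4 higher, 6 lower).

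Those with the smallest p are given as values, a choice made from these same data that favours lines standing apart. The lines stood apart for 13.3% of all probes with 7 values. Plcb4, a phospholipase C that makes diacylglycerol, read 10.14, 10.12, 10.23 and 10.03 in P 1 to P 4, against 10.49, 10.59 and 10.39 in NP 2 to NP 4. Its groups did not overlap, and the difference was -0.36 ± 0.11 (SE, adjusted p = 0.324 by limma), or -0.41 with date as a block (adjusted p = 0.0892 by limma). Fabp7, a fatty acid-binding protein of astrocytes and radial glia that can carry anandamide, read 10.15, 9.87, 10.80 and 10.52 in P 1 to P 4, against 10.93, 10.98 and 10.88 in NP 2 to NP 4. Every P value lay below every NP value, and P 1 and P 2 were the lowest. The difference was -0.60 ± 0.20 (adjusted p = 0.340 by limma) over all rats. With date as a block it was -0.94 (adjusted p = 0.0154 by limma), and P 1 and P 2 minus P 3 and P 4 came to -0.65 (adjusted p = 0.0184 by limma). Pla2g4a, the cytosolic phospholipase that frees arachidonate, read 6.52 to 6.77 in P and 6.91 to 7.27 in NP, and differed by -0.38 ± 0.13 (adjusted p = 0.352 by limma). Alox5, which starts leukotriene synthesis, read 6.71 to 6.92 in P and 6.45 to 6.62 in NP, and differed by 0.27 ± 0.11 (adjusted p = 0.416 by limma). Both genes were dim, and Alox5 in NP was near the NP mean of Napepld (6.47). The sizes of Pla2g4a and Alox5 depended on the processing, at -0.66 and 0.53 with plain background subtraction. In the processed values of the authors they were -0.62 and 0.53, and neither gene was called in either. Adora2a, the adenosine receptor that striatal neurons carry beside the cannabinoid receptor, read 8.66, 8.51, 7.87 and 8.47 in P 1 to P 4, against 7.92 to 8.01 in NP, so that P 3 lay below all NP rats. It differed by 0.42 ± 0.18 (adjusted p = 0.412 by limma).

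With date as a block 2 of the 32 were called, both lower in P, against 5.72% of all probes: Fabp7 and Gnaz, a G protein alpha subunit of the inhibitory class (-0.56, adjusted p = 0.0394 by limma). The markers Aif1 (-1.23) and Slco1a4 (-0.63) were called lower in the same fit, with other markers of microglia and endothelium on either side. No astrocyte marker was called there. Aqp4 (-0.73, adjusted p = 0.0533 by limma), Gja1 (-0.30), Aldoc (-0.09) and Slc1a3 (-0.07) lay lower. Gfap (0.29), Slc1a2 (0.20) and S100b (0.04) lay higher. The part of these cell types in the Fabp7 and Gnaz differences was not tested. Within date 1 Adora2a was called too (0.62, adjusted p = 0.0315 by limma), against 6.47% of all probes. The blocked fit gave the same 0.62 from the same rats, with an adjusted p = 0.0761 by limma. In the comparison of the P rats by date, 5 of 31 were called, against 16.7% of all probes. They were Gnai2 (1.09) and Gpr119 (0.62), higher in P 1 and P 2, and Plaat3 (-0.94), Gnaz (-0.89) and Fabp7 (-0.65), lower there, with adjusted p of 0.00447 to 0.0204 by limma; 1 NP spot of Plaat3 was missing. Gnaz, Gnai2, Gpr119 and Plaat3 were named after their values were seen.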

How the data were processed

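Scanner output was deposited for each array and holds, per the file headers, a mean intensity, a local background median intensity and a quality flag per spot. The authors also deposited log2 values, and the sources used here do not say how these were made. They followed the log2 of the scaled intensity (r of 0.9985 or higher per array, medians -0.07 to 0.05). Their direction is thus known. Their scale, which r does not measure, and a further adjustment between arrays were not tested. Spots were corrected by normexp (offset 50) and quantile-normalized over transcript probes with limma 3.58.1 in R 4.3.3. The 240 positive and 256 negative control spots did not enter the normalization. Spots flagged M, I or C were set to missing, which touched no endocannabinoid spot. RefSeq accessions, versions dropped, named 7207 probes for 6046 genes in the GRCr8 table. A pathway or marker gene was represented by its brightest tested probe.

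P minus NP was fitted by lmFit and eBayes over all tested probes, with Benjamini-Hochberg adjustment. The fit was tested on simulated data drawn without an effect of header date, so that test does not cover the dates of these arrays. The members and lists were chosen with earlier results of these data known. Named are all members, the pathway genes called or otherwise the 5 with the smallest p, and the 2 genes most similar to each member above background on all arrays. Alternatives varied background correction, scaling, filter, prior, array weights, the source of the values, blocks and single arrays. The comparison of the P rats by header date, and the fits without either pair, were added after seeing the data. Precision is limited by the number of arrays. Figures were drawn with matplotlib 3.10.9.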

Additional observations from a re-analysis of the deposited data

How the results depend on the processing

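The count of endocannabinoid probes called between the lines was 0 in all alternatives but 1: it was 1 (Ptgs2) without P 3 and P 4. The count over all probes was 84, and 51 in the authors' processed values, 49 among probes above background on all 7 arrays, 151 with array weights, 1660 with header date as a block (28.9% of them higher in P, against 46.4%), 1870 within date 1, 3318 without P 3 and P 4, 189 without P 1 and P 2, and 51 to 121 with each array left out. Leaving out NP 4 gave 51 and NP 3 gave 53. Replicate number as a block gave 104 calls and 0 endocannabinoid calls. The deviations of same-numbered rats correlated at 0.097, 0.057 and 0.021, with no test. P 3 was nearer to NP 4 (0.23) than to NP 3, and P 4 nearer to NP 3 (0.059) than to NP 4. P 2 was nearest to NP 2. These values cannot decide whether the numbers pair the rats. Differences that changed sign were small, apart from Ptgs2 at 0.21 without P 1 and P 2. Abhd12 was -0.0055 there, and Abhd6 -0.0042 with the replicate block and -0.0042 to 0.10 with each array left out. Trpv1 probe GE13216 was -0.14 with plain background subtraction, -0.061 with median scaling, -0.17 in the authors' values, -0.016 with array weights, -0.066 with the date block and within date 1, -0.016 without P 3 and P 4, and -0.11 to 0.11 with each array left out. Probe GE21255 was -0.13 to 0.017 with each array left out. Napepld stayed lower in P, from -0.48 to -0.067 over the alternatives. In the comparison of the P rats by header date, 4832 probes were called, and 576 with plain background subtraction, 4 in the authors' values, 1736 with array weights and 404 (without P 2) to 3961 with a P rat left out. Without P 1 there were 2983 and without P 3 1860. The endocannabinoid count there was 1, and 0 with plain background subtraction, in the authors' values and without P 2. Signs changed with median scaling for both Trpv1 probes (0.31 for GE21255, 0.28 for GE13216), Napepld (0.16) and Abhd6 (-0.087). Probe GE21255 was also 0.043 with plain background subtraction, 0.058 in the authors' values and 0.056 with array weights. With a P rat left out the ranges were -0.23 to 0.21 for GE21255, -0.37 to 0.29 for GE13216, -0.39 to 0.0099 for Napepld, and -0.047 to 0.20 for Abhd6. The causes were not tested. Signal near the negative controls limits what Trpv1 and Napepld can show.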
